A study of Rattus norvegicus with 24 samples.

Results

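The potassium channel genes described here were the 85 genes whose symbol starts with Kcn and that had a probe set of their own on a microarray of rat cerebellum. They were 85 of the 18137 genes measured. Probe sets annotated to several genes were not used, Kcnj10 and Kcne2 were left out of the selection, and Kcnj2, which had more than 1 probe set, was represented by the brighter one. The rule reads gene symbols and takes no measured difference into account.

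The 24 arrays came from cerebellum of Sprague-Dawley rats in 5 groups. The 5 Sham arrays were from rats with control surgery. The 5 arrays called PCA here were from rats examined 6 months after portocaval anastomosis, a surgical shunt that carries portal blood past the liver and is used as a model of hepatic encephalopathy. The 5 arrays called NH3 were from PCA rats that also received ammonia in 10 infusions given every 2 weeks, each at 20 µl/min for 3 h. The 5 arrays called LPS were from PCA rats given lipopolysaccharide, a bacterial cell wall component that provokes inflammation. It was given 10 times, every 2 weeks, at 5 mg/kg. The 4 arrays called NH3+LPS were from PCA rats given both agents, also 10 times, every 2 weeks, at those doses. Every group other than Sham therefore carried the shunt. Age, sex and vehicle infusions were not given in the sources used here, and the labels do not say whether the samples of a group were separate animals, so p-values measure the spread between these samples only.

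Potassium channels set the resting potential of neurons and glia, end the action potential and shape firing. Voltage-gated (Kv) pore subunits open on depolarisation. Silent Kv subunits and accessory subunits change the properties of the channels they join, calcium- and sodium-activated channels link firing to intracellular ions, inward rectifiers and tandem-pore channels hold the membrane near rest. In the cerebellum, Kv3 channels (Kcnc) support fast firing, Kv4 channels (Kcnd) with their Kcnip partners carry A-type current in granule cells, and Kv1 channels (Kcna) with Kcnab subunits control axons and terminals.

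Values are log2 expression, on which a difference of 1 is a doubling, and were deposited in steps of 0.1. Differences were tested with limma across all 18137 genes, and a gene was called at a Benjamini-Hochberg adjusted p under 0.05. Levels of different probe sets are not set against each other as amounts. In whole tissue, fewer cells of a type and less RNA per cell cannot be told apart.

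None of the 85 potassium channel genes passed the threshold in any comparison. The count was 0 of 85 for PCA against Sham, where 0% of all genes were called, and 0 for each of NH3, LPS and NH3+LPS against PCA, where 0% of all genes were called in each. It was 0 for all shunted groups together against Sham (0.00551% of all genes called), 0 for the ammonia factor and 0 for the LPS factor (0.0165% each), 0 for the interaction of both agents (0%) and 0 in the F-test over the 5 groups (0.011%). The ammonia factor compares the mean of NH3 and NH3+LPS with the mean of PCA and LPS, and the LPS factor the mean of LPS and NH3+LPS with the mean of PCA and NH3. The smallest adjusted p of a potassium channel gene in any of these contrasts was 0.489, for Kcnh5 in all shunted groups against Sham by limma.

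The intervals say how large a difference the arrays leave room for. The 95% interval lay within 0.5 of 0 for 69 of 85 genes in PCA against Sham, 68 in NH3 against PCA, 71 in LPS against PCA and 75 in NH3+LPS against PCA. It lay within 1 of 0 for 83, 83, 84 and 84 of the genes in the same order. The standard error of a difference between groups had a median of 0.119 over the 85 genes. The median difference of the 85 genes was -0.02 in PCA against Sham, -0.04 in NH3 against PCA, -0.02 in LPS against PCA and 0.015 in NH3+LPS against PCA, beside medians of 0 over all genes. These comparisons share the Sham or the PCA arrays and are not independent of each other.

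**Figure D1:**
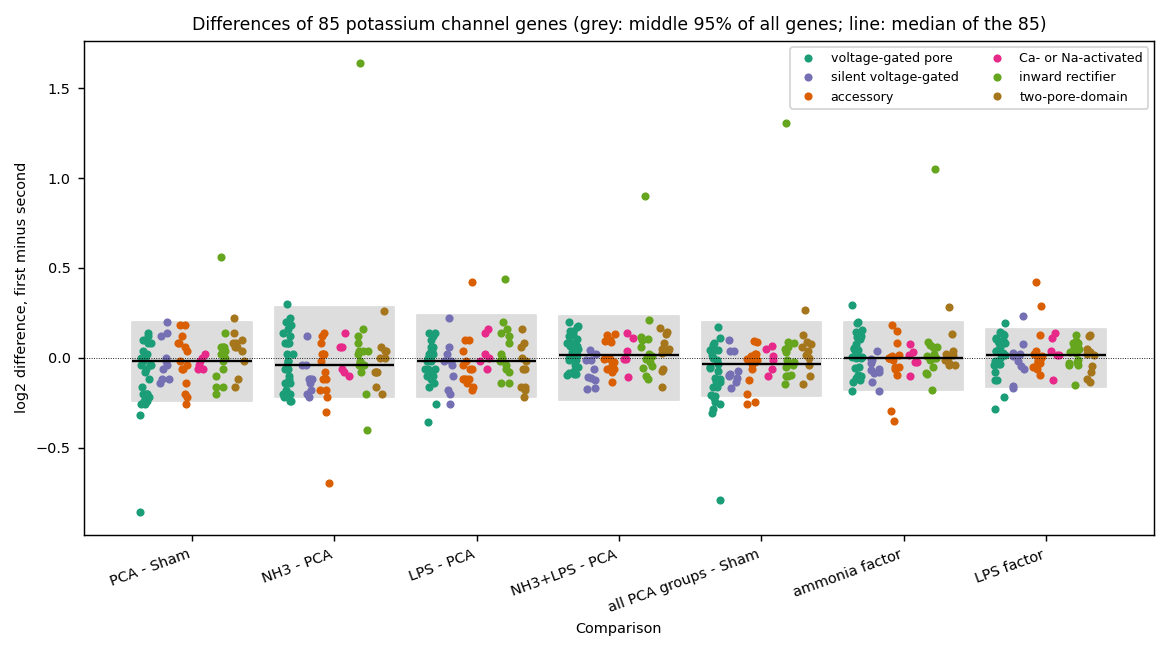
Log2 difference of each of the 85 potassium channel genes (vertical axis) in 7 comparisons (horizontal axis), coloured by role, with the median of the 85 as a black line and the middle 95% of all genes as a grey band. The medians lie between -0.04 and 0.0175, and the points farthest out are Kcnh5 at -0.86 in PCA - Sham and Kcnj13 at 1.64 in NH3 - PCA.

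At an unadjusted p under 0.05, 5 of 85 potassium channel genes (5.88%) differed between PCA and Sham, beside 3.59% of all genes, and 5 (5.88%) between NH3 and PCA, beside 4.98%. The count was 0 for LPS against PCA (4.01% of all genes), but 5 without LPS array 2, without the 4 arrays high in brainstem markers or with each array centred on its median. It was 1, or 1.18%, for NH3+LPS against PCA (4.16%), and 3 without NH3+LPS array 2. All shunted groups against Sham gave 8 genes, or 9.41%, beside 5.94% of all genes. The ammonia factor gave 3 (3.53%, beside 5.57%), the LPS factor 3 (3.53%, beside 3.09%), the interaction 5 (5.88%, beside 3.72%) and the F-test 6 (7.06%, beside 4.77%). The 5, 5 and 8 genes of PCA against Sham, NH3 against PCA and all shunted groups against Sham were lower in every case, where 1.91%, 2.89% and 3.46% of all genes were lower at that p. These counts are descriptions of genes that failed the adjusted threshold, and the count for PCA against Sham was 2 without Sham array 1, without Sham array 5 or without PCA array 2, and 8 without Sham array 3, Sham array 4 or PCA array 3.

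Sham array 1 stood apart from the other arrays. It held the single highest value of 20 of the 85 genes and the single lowest of 15, together 41.2% of them, beside 21.1% of all genes. For 18 of the 85 genes (21.2%) it lay at least 0.3 beyond every other array, beside 6.88% of all genes, while no other array did so for more than 3. Markers of brainstem neurons averaged 1.5 above their mean over all arrays in Sham array 1 (11 of 11 markers measured) and myelin markers 1.18 above (14 of 14), while granule cell markers averaged -0.59 (12 of 12) and Purkinje cell markers -0.55 (10 of 10). The average of the brainstem markers was also above its mean over all arrays in PCA array 3 (0.84), NH3 array 1 (1.15) and NH3 array 2 (0.54). On the NH3 arrays only part of the list was high. Th read 8.8 and 7.8 on NH3 arrays 1 and 2, and Dbh 8.6 and 7.0. Slc6a5 read 7.3 on both, against 7.4 to 9.1 in Sham, and Hoxb3 read 5.0 and 5.2, against 5.2 to 6.0 in Sham. The part of these tissues in the results was not tested, and some of the counts and differences from Sham are also given without Sham array 1. Granule and Purkinje cell markers were present on every array: Gabra6, a granule cell receptor subunit, read 11.8 to 12.4 and Pcp2, a Purkinje cell protein, 10.3 to 10.7.

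Among the genes high on Sham array 1, Kcna6, a Kv1 pore subunit, read 8.2, against 6.7 to 7.5 on the other 23 arrays. Kcnab2, a Kv1 beta subunit, read 9.4 there, against 8.5 to 8.8 elsewhere. Kcnq3, a subunit of the M-current channels, read 7.8, against 6.5 to 7.1. Kcna4 read 6.0 (4.4 to 5.5 elsewhere), Kcnq5l, now named Kcnq5, 6.6 (5.0 to 6.2 elsewhere), and Kcne1l, now named Kcne5, 8.9 (6.8 to 8.5 elsewhere). On the low side Kcnh3, a Kv12 pore subunit, read 8.5 (9.0 to 9.6), Kcnj3, a G protein-gated inward rectifier, 10.2 (10.7 to 11.1), and Kcnk3, the acid-sensitive tandem-pore channel TASK-1, 7.1 (7.6 to 8.2). Kcnv1, a silent Kv subunit, read 7.6, against 8.1 to 9.3 on the others. PCA array 3 read 5.5 for Kcna4, 8.5 for Kcne1l and 8.3 for Kcnv1.

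**Figure D2:**
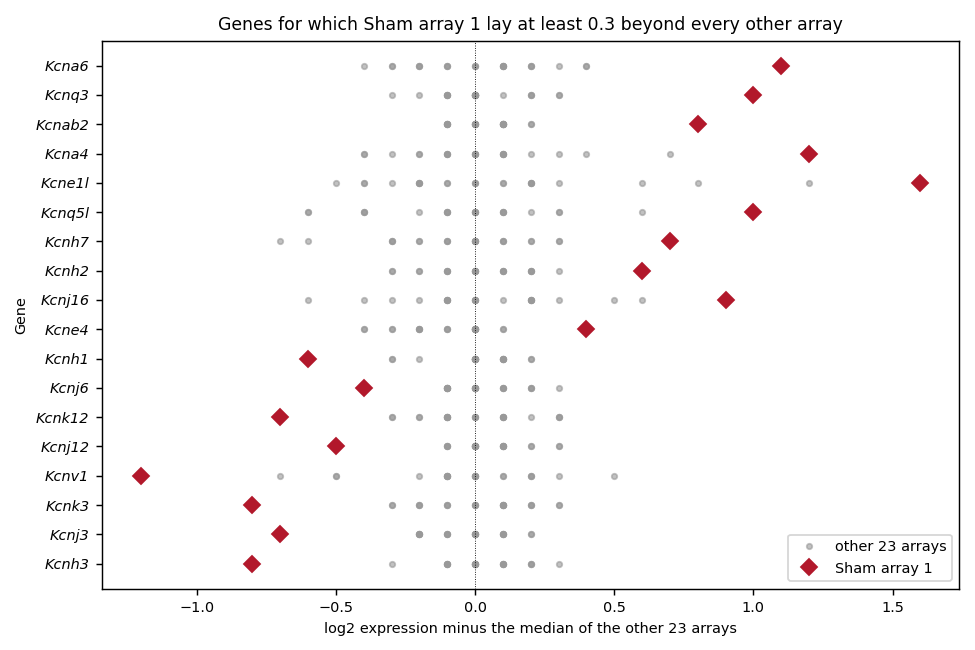
Log2 expression minus the median of the other 23 arrays (horizontal axis) for the 18 potassium channel genes for which Sham array 1 lay at least 0.3 beyond every other array (vertical axis), with Sham array 1 as red diamonds and each other array as a grey point. The array is high for 10 of them and low for 8.

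Over the groups, the spread within a group was larger for the potassium channel genes than for the typical gene: the pooled SD had a median of 0.195 over the 85, beside 0.158 over all genes, with no test made. It ran from 0.088 for Kcnk1, the tandem-pore channel TWIK-1, to 1.51 for Kcnj13, an inward rectifier.

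**Figure D3:**
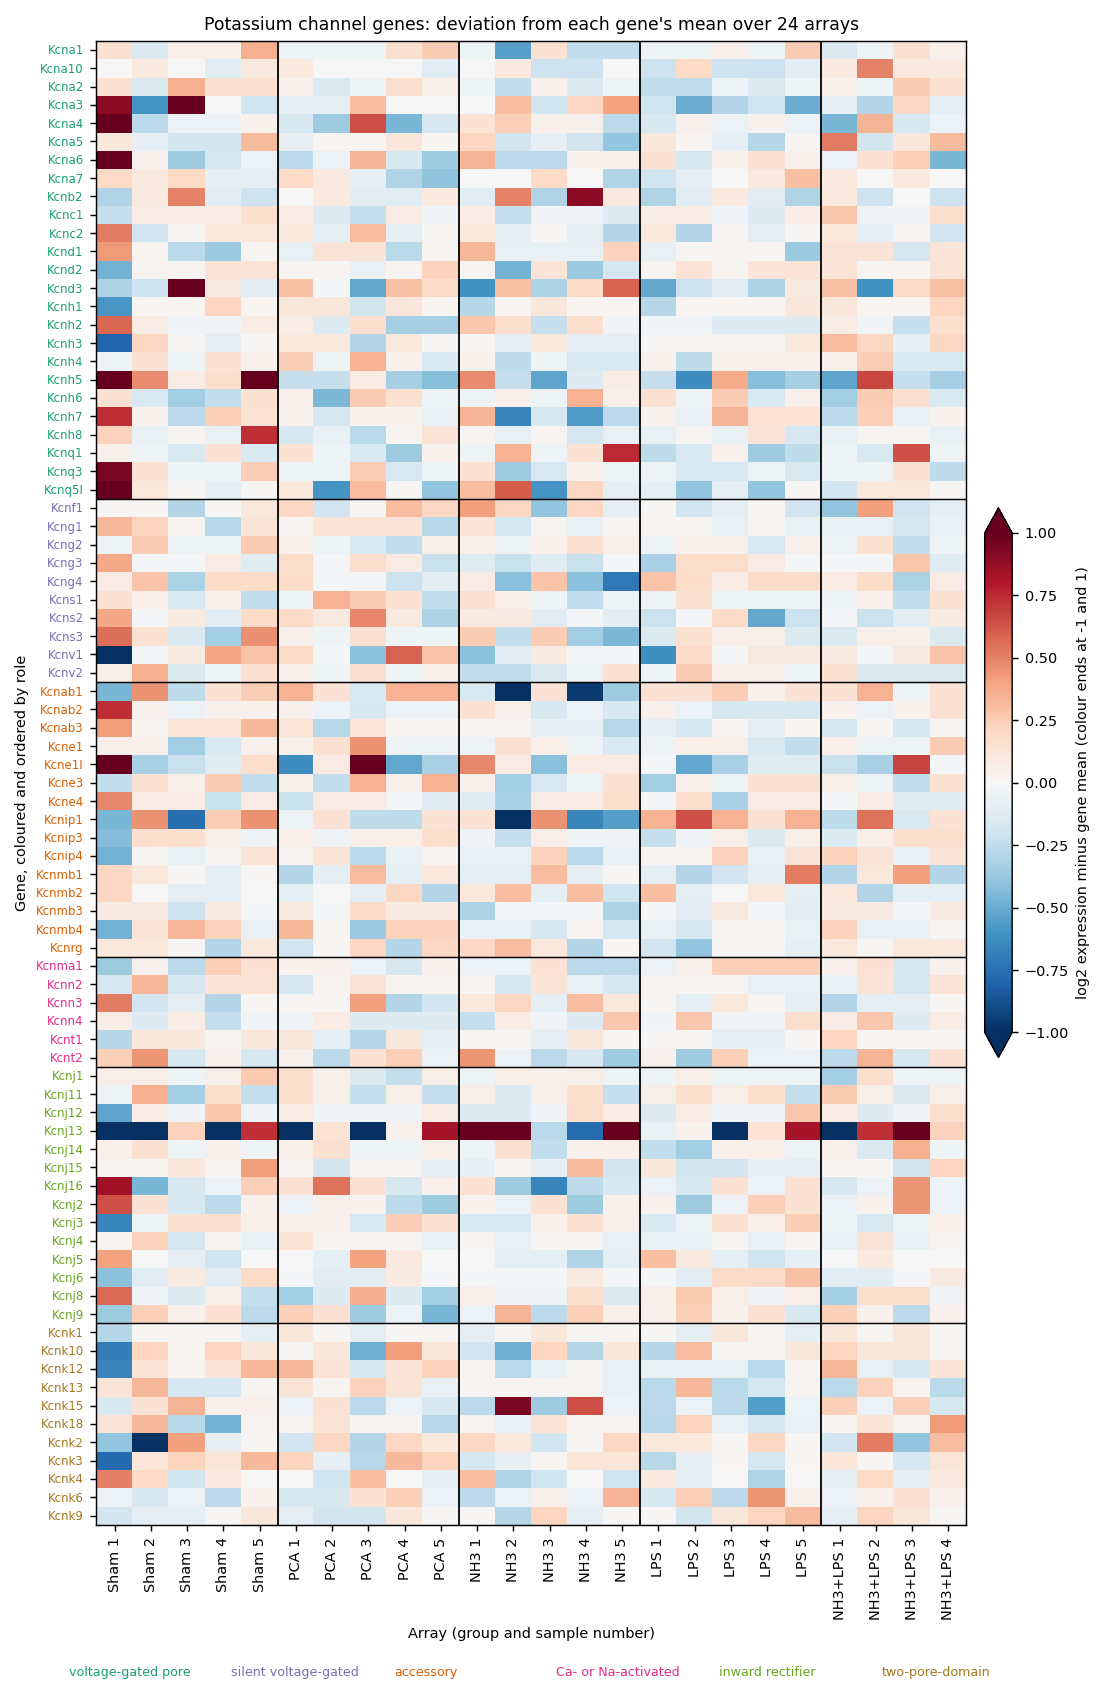
Log2 expression of 81 potassium channel genes (rows, ordered by role) on 24 arrays (columns, by group) as the deviation from each gene's mean over the arrays, with colour ending at -1 and 1. The column of Sham array 1 and the row of Kcnj13 hold many of the strongest colours.

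The Kv pore subunits made up 29 of the genes (8 Kcna, 2 Kcnb, 3 Kcnc, 3 Kcnd, 8 Kcnh and 5 Kcnq). In PCA against Sham, 8 of 29 were higher and 19 (65.5%) lower, with a median of -0.06, beside 45.3% of all genes lower and a median of 0. Without Sham array 1, 7 were higher and 22 lower, with a median of -0.03, and 50.4% of all genes were lower. In all shunted groups against Sham, 9 were higher and 20 lower, with a median of -0.11, beside 50.6% of all genes lower and a median of -0.0025, and without Sham array 1 the median of the 29 was -0.07. In that contrast 6 of the 29 had an unadjusted p under 0.05, all of them lower, beside 3.46% of all genes. All 5 Kcnq genes and 7 of 8 Kcna genes were lower in PCA than in Sham, with median differences of -0.22 and -0.14. Without Sham array 1 they were 5 of 5 and 6 of 8, with medians of -0.12 and -0.025, so the sizes for both subfamilies moved with that array. None of these genes passed the threshold.

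Kcnh5 encodes a pore subunit of the ether-à-go-go (Kv10) family and had the largest difference from Sham on the low side. Its log2 values were 6.9, 6.2, 5.8, 5.9 and 7.0 in Sham, and 5.5, 5.5, 5.8, 5.4 and 5.3 in PCA. They were 6.2, 5.5, 5.2, 5.6 and 5.8 in NH3, 5.5, 5.1, 6.1, 5.3 and 5.4 in LPS, and 5.2, 6.4, 5.5 and 5.4 in NH3+LPS. Sham arrays 1 and 5 were the highest of all 24, and the lowest Sham array equalled the highest PCA array, so the groups met at 5.8. PCA differed from Sham by -0.86 (SE 0.243, 95% interval -1.36 to -0.357, adjusted p = 0.987 by limma). All shunted groups together differed from Sham by -0.79 (SE 0.193, interval -1.19 to -0.394, adjusted p = 0.489 by limma). Without Sham array 1 this difference was -0.66, and over all single arrays left out it ran from -0.93 (without Sham array 3) to -0.63 (without Sham array 5). Without the 4 arrays high in brainstem markers it was -0.71.

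Among the Kcnq genes, Kcnq3 differed between all shunted groups and Sham by -0.31 (SE 0.110, adjusted p = 0.760 by limma). Its mean was 7.10 ± 0.41 in Sham and 6.84 ± 0.15, 6.78 ± 0.19 and 6.74 ± 0.055 in PCA, NH3 and LPS (SD, n = 5 each), and Sham array 1 alone read 7.8. Without that array the difference of Kcnq3 was -0.135.

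Of the Kv1 genes, Kcna1 and Kcna2, the main axonal subunits, had narrow ranges. Kcna2 had a mean of 10.68 ± 0.18 in Sham, 10.56 ± 0.11 in PCA, 10.46 ± 0.11 in NH3, 10.40 ± 0.10 in LPS (SD, n = 5 each) and 10.65 ± 0.13 in NH3+LPS (n = 4). Its shunted groups differed from Sham by -0.16 (SE 0.067, adjusted p = 0.818 by limma). Kcna1 read 10.30 ± 0.14 in PCA and 10.06 ± 0.26 in NH3 (SD, n = 5 each), a difference of -0.24 (SE 0.109, adjusted p = 0.966 by limma), and NH3 array 2 was the lowest of all at 9.7. The difference of Kcna1 was -0.15 without that array and -0.10 without the 4 arrays high in choroid plexus markers. Leaving those 4 out kept only NH3 arrays 3 and 4 in the NH3 group.

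Kcna3, a Kv1 subunit also found in microglia and lymphocytes, was the only potassium channel gene whose groups did not overlap in a comparison of a treated group with PCA or of PCA with Sham. It read 7.2, 7.2, 7.6, 7.3 and 7.3 in PCA and 7.1, 6.8, 7.0, 7.1 and 6.8 in LPS, so that every LPS array lay below every PCA array. That is 1 of 85 genes, beside 0.127% of all genes that were lower in this way and 0.248% that did not overlap in either direction. The count was 0 of 85 in PCA against Sham (0.154% of all genes), NH3 against PCA (0.287%) and NH3+LPS against PCA (0.81%). The difference was -0.36 (SE 0.212, adjusted p = 0.988 by limma). The shared spread behind that SE includes the Sham arrays, which read 8.2, 6.7, 8.3, 7.3 and 7.1 and so covered both groups.

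None of the Kv3 and Kv4 genes of fast-firing and granule neurons passed the threshold. Their differences from PCA in the infused groups ran from -0.26 to 0.145. Kcnc1 had group means between 11.16 in NH3 and 11.33 in NH3+LPS, with a pooled SD of 0.128. Kcnd2 ranged from 11.20 ± 0.25 in NH3 to 11.46 ± 0.055 in LPS (SD, n = 5 each), and its lowest values, 10.9, were on Sham array 1 and NH3 array 2. Kcnd3 varied more within groups than between them, from 8.9 to 10.2 in Sham and from 8.6 to 9.8 in NH3. In the Kcnb family, Kcnb2 read 7.4 and 7.8 on NH3 arrays 2 and 4 and 6.6 to 7.0 on the other NH3 arrays.

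Silent Kv subunits, which form channels only together with Kcnb pores, numbered 10. In NH3 against PCA 9 of 10 were lower, with a median of -0.12, and in the ammonia factor 9 of 10 were lower, with a median of -0.065, beside medians of 0 and -0.005 over all genes. Of all genes, 49.3% and 52.6% were lower, in that order. The silent subunits were also mostly lower in LPS against PCA (7 of 10, median -0.03) and NH3+LPS against PCA (8 of 10, median -0.0825). There 45.5% and 49.8% of all genes were lower, and these comparisons share the PCA arrays. With each array centred on its own median, the median of all genes in NH3 against PCA was -0.04 and 65.6% of them were lower. The array medians differed by 1 step of 0.1 (6.3 or 6.4). None of the 10 reached an unadjusted p under 0.05 in NH3 against PCA.

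The 15 accessory subunits included the gene with the lowest p between NH3 and PCA. Kcnab1, a Kv beta subunit that confers inactivation on Kv1 channels, read 9.8, 9.6, 9.3, 9.8 and 9.8 in PCA and 9.3, 8.3, 9.6, 8.5 and 9.1 in NH3. It read 9.0, 9.9, 9.2, 9.6 and 9.7 in Sham, 9.6, 9.6, 9.7, 9.5 and 9.6 in LPS, and 9.6, 9.8, 9.4 and 9.6 in NH3+LPS. The low values were on NH3 arrays 2 and 4, and the other 3 NH3 arrays lay inside the range of Sham. The difference between NH3 and PCA was -0.70 (SE 0.191, 95% interval -1.09 to -0.306, adjusted p = 0.614 by limma), and -0.86 to -0.54 with single arrays left out. NH3+LPS differed from PCA by -0.06. The interaction of the agents for Kcnab1 was 0.70 (SE 0.278), with an adjusted p of 0.997 by limma.

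Kcnip1, a calcium-binding partner of Kv4 channels, and Kcng4, a silent subunit, were low on some of the same arrays. Kcnip1 read 9.0, 7.7, 9.3, 8.2 and 8.3 in NH3, with Sham array 3 at 8.1 and Sham array 1 at 8.4. Kcng4 read 8.0, 7.5, 8.2, 7.5 and 7.2 in NH3, with Sham array 3 at 7.6. NH3 arrays 2, 4 and 5 were thus the lowest NH3 arrays for Kcnab1, Kcnip1 and Kcng4. Otx2, a homeobox transcription factor gene on the choroid plexus list, read 9.5, 9.4 and 9.3 on these 3 arrays and 6.0 and 5.0 on NH3 arrays 1 and 3. It read 8.8 on Sham array 3, 8.6 on NH3+LPS array 3 and 7.5 or less on all other arrays. The other genes of that list did not share this pattern. Ttr was at 6.3 on NH3 array 4 and 6.8 on Sham array 3. Kl, Folr1 and Cldn2 read 5.8, 4.8 and 3.9 on NH3 array 4 and 7.6, 6.6 and 6.2 on NH3 array 1. Every listed gene except Otx2 read higher on NH3 array 1 than on NH3 array 4. What moved with Otx2 was seen after the values were known, and its part in the result was not tested. In LPS, Kcnip1 was 9.22 ± 0.18 and Kcng4 8.10 ± 0.071 (SD, n = 5 each). The LPS factor, whose reference mean includes the NH3 arrays, was 0.42 for Kcnip1 (SE 0.182), 0.23 for Kcng4 (SE 0.106) and 0.29 for Kcnab1 (SE 0.139), each with an adjusted p of 0.997 by limma.

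Kcnd3 and Kcna3 had their highest NH3 values on NH3 arrays 2, 4 and 5, and their highest value of all on Sham array 3. Kcnd3 read 10.2 on Sham array 3 and 9.5, 9.4 and 9.8 on NH3 arrays 2, 4 and 5, against 8.6 and 8.9 on NH3 arrays 1 and 3. Kcna3 read 8.3 on Sham array 3 and 7.6, 7.5 and 7.7 on NH3 arrays 2, 4 and 5, against 7.3 and 7.1 on NH3 arrays 1 and 3. Arrays of other groups read as high as NH3 arrays 2 and 4. Among them, Kcnd3 read 9.5 on PCA arrays 1 and 4 and on NH3+LPS arrays 1 and 4. Kcna3 read 8.2 on Sham array 1 and 7.6 on PCA array 3. Sham array 3 was from a rat with control surgery. The cause of these values was not tested.

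Kcnab3, another Kv beta subunit, had the second smallest p in all shunted groups against Sham. It read 8.5, 8.1, 8.2, 8.2 and 8.4 in Sham, 8.2, 7.8, 8.2, 8.1 and 8.1 in PCA and 8.1, 8.1, 8.0, 8.0 and 7.8 in NH3. It read 8.0, 7.9, 8.1, 8.0 and 8.1 in LPS and 7.9, 8.1, 7.9 and 8.1 in NH3+LPS. No NH3, LPS or NH3+LPS array lay above 8.1, which was the lowest Sham value. The difference was -0.26 (SE 0.069, adjusted p = 0.594 by limma), and -0.20 without Sham array 1. Kcnab2 was lower by a difference of -0.20 (SE 0.085), and by -0.055 without Sham array 1. Kcnmb3, a beta subunit of the large-conductance calcium-activated channel, differed by -0.22 between NH3 and PCA (SE 0.075, adjusted p = 0.912 by limma), with NH3 arrays 1 and 5 at 3.7. The Kv4 partners Kcnip3 and Kcnip4 had their lowest values, 10.3 and 9.7, on Sham array 1.

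**Figure D4:**
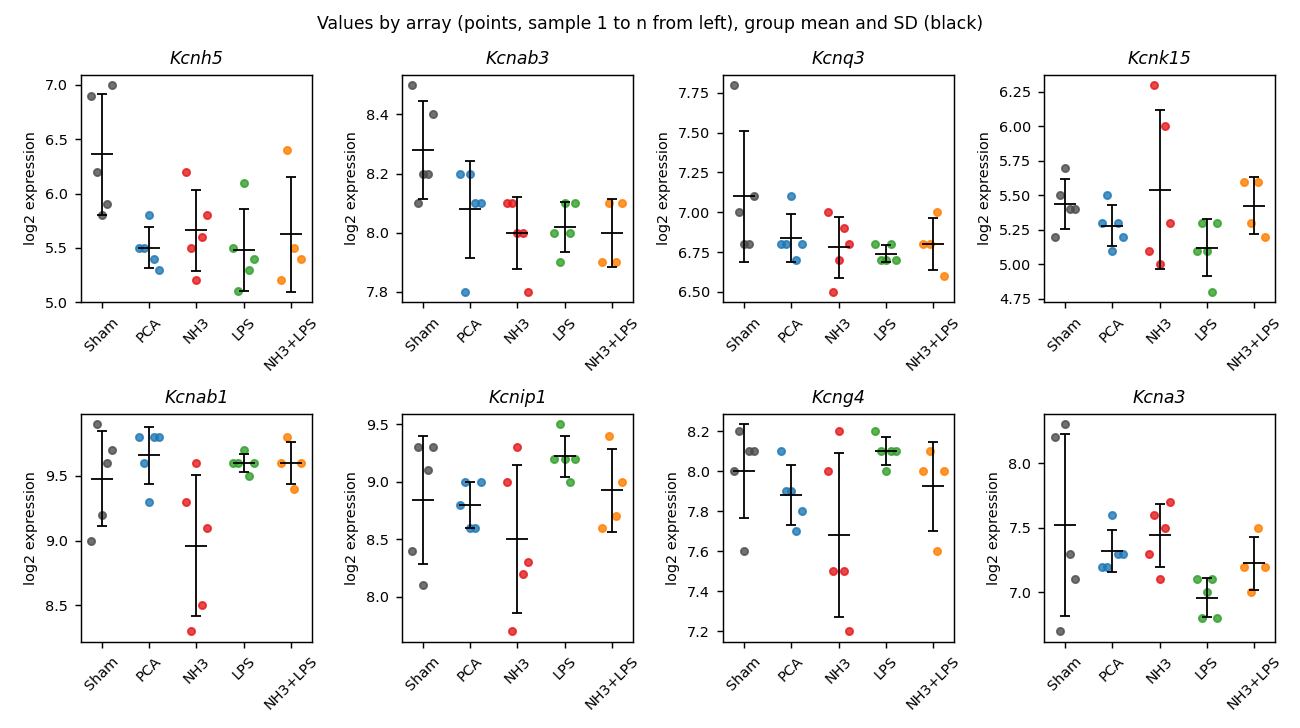
Log2 expression (vertical axis, scaled to each gene and not starting at 0) of 8 potassium channel genes on every array, with points in sample order within each group and the group mean and SD in black. Kcnh5 is highest on Sham arrays 1 and 5, Kcnk15 is highest on NH3 arrays 2 and 4, Kcnab1, Kcnip1 and Kcng4 have their lowest NH3 values on arrays 2, 4 and 5, and the LPS points of Kcna3 lie below the PCA points.

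The 6 calcium- or sodium-activated pore genes had small differences. Every one of their 95% intervals lay within 0.5 of 0 in all 4 comparisons of single groups. Kcnma1, the large-conductance pore that Purkinje cells use, had means of 9.72 ± 0.26 in Sham, 9.74 ± 0.089 in PCA, 9.66 ± 0.17 in NH3, 9.90 ± 0.14 in LPS (SD, n = 5 each) and 9.78 ± 0.13 in NH3+LPS (n = 4). Kcnn2, the small-conductance SK2 channel, had group means between 7.92 and 8.02. Kcnt1, a sodium-activated channel, had group means between 10.14 and 10.25. Neither gene showed a group that left the range of the Sham arrays by its mean. For Kcnt1 that range rested on Sham array 1, at 9.9, while the other Sham arrays read 10.2 to 10.3. Its lowest group mean, 10.14, lay below those other Sham arrays.

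Of the 14 inward rectifiers, 7 were higher and 6 lower in PCA than in Sham, and 8 higher and 6 lower in NH3 than in PCA. The G protein-gated subunits Kcnj3, Kcnj6 and Kcnj9 had group means between 10.78 and 10.92, 8.54 and 8.72, and 6.76 and 6.92. Kcnj3 was lowest on Sham array 1, and its difference between PCA and Sham was -0.005 without that array, on the other side of 0. Kcnj16, a pH-sensitive subunit that pairs with Kcnj10 in glia, read 7.40 ± 0.25 in PCA and 7.0 ± 0.29 in NH3 (SD, n = 5 each), a difference of -0.40 (SE 0.183, adjusted p = 0.966 by limma).

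Kcnj13 (Kir7.1), an inward rectifier of the choroid plexus and other transporting epithelia, had the widest differences and the widest spread. It read 4.8, 4.3, 7.3, 6.0 and 7.8 in Sham and 5.9, 7.2, 4.9, 7.1 and 7.9 in PCA. It read 8.1, 9.6, 6.8, 6.3 and 10.4 in NH3, 7.0, 7.1, 6.0, 7.2 and 7.9 in LPS, and 4.8, 7.8, 10.1 and 7.3 in NH3+LPS. All groups overlapped, and the 4 arrays above 8 were NH3 arrays 1, 2 and 5 and NH3+LPS array 3. The difference between NH3 and PCA was 1.64 (SE 0.862, 95% interval -0.141 to 3.42, adjusted p = 0.981 by limma), and the ammonia factor was 1.05 (SE 0.628).

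Those 4 arrays were also the ones high in choroid plexus markers. The mean of the 13 markers, all 13 of them measured, lay 1.16, 2.18, 2.89 and 2.76 above its mean over all arrays on NH3 arrays 1, 2 and 5 and NH3+LPS array 3, and at most 0.41 above it on the other 20. The mean level of the markers on an array spanned 5.07 to 5.46 over the Sham arrays, 5.08 to 5.88 over PCA, 5.25 to 8.62 over NH3, 4.98 to 6.14 over LPS and 5.02 to 8.48 over NH3+LPS. Ttr, which encodes transthyretin, was at 12 to 12.5 on the 4 arrays, at 11 on LPS array 1 and at 10.3 on PCA array 4, and at 8.2 or less on the others. The 4 arrays also held the 4 highest Kcnj13 values, and without them only NH3 arrays 3 and 4 remained in NH3. Kcnj13 then differed by -0.05 between NH3 and PCA and by -0.23 in the ammonia factor, opposite in sign to the values with them. Taking out the highest values of the ammonia groups lowers these differences in any case, and the part of choroid plexus tissue was not tested.

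Kcnj13 also varied among the arrays low in choroid plexus markers, where it stood beside markers of the meninges (7 of 8 measured). Kcnj13 read 4.3, 4.8 and 4.8 on Sham array 2, NH3+LPS array 1 and Sham array 1, whose meningeal markers averaged -1.38, -1.13 and -0.70 relative to their mean. It read 7.8 on Sham array 5, which was highest in these markers at 1.06. The order was not kept throughout: Kcnj13 read 4.9 on PCA array 3 at -0.24, 5.9 on PCA array 1 at -0.68 and 7.0 on LPS array 1 at -0.63. The meningeal means ranged from 5.74 to 8.19 in Sham, 6.44 to 7.47 in PCA, 6.99 to 7.83 in NH3, 6.5 to 7.66 in LPS and 6.00 to 7.90 in NH3+LPS. The part of the meninges in the values of Kcnj13 was not tested.

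Kcnq1, a Kv7 pore subunit of epithelia and heart, was high on 3 of these 4 arrays. It read 4.4, 4.8, 4.4, 4.6 and 5.2 in NH3 and 4.4, 4.3, 5.1 and 4.4 in NH3+LPS, while PCA lay between 4.1 and 4.6. The ammonia factor was 0.30 (0.295, SE 0.107, adjusted p = 0.757 by limma), and 0.11 without the 4 arrays high in choroid plexus markers. The latter fit kept only NH3 arrays 3 and 4 in the NH3 group.

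**Figure D5:**
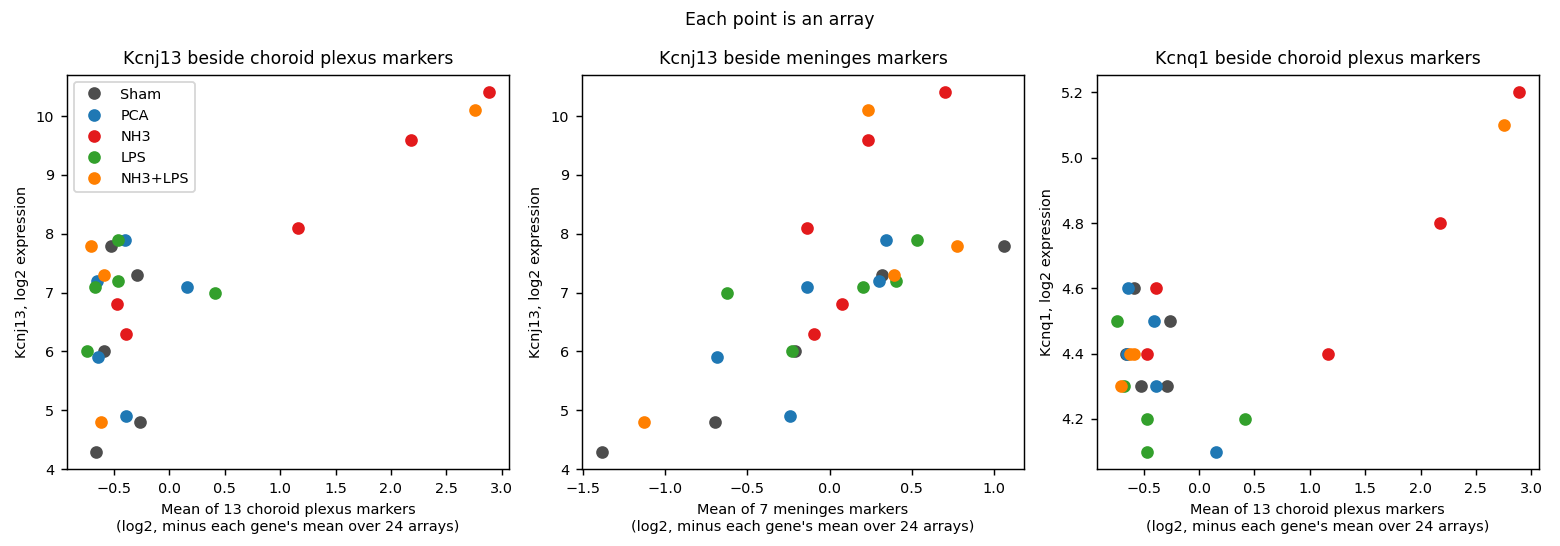
Log2 expression of Kcnj13 and Kcnq1 on each array (vertical axes) beside the mean of 13 choroid plexus markers or 7 meningeal markers, each relative to its mean over the 24 arrays (horizontal axes), coloured by group. Kcnj13 reads 8.1 to 10.4 on the 4 arrays with choroid plexus means of 1.16 to 2.89, and among the others values of 4.3 to 4.9 sit at meningeal means from -1.38 to -0.24.

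Tandem-pore channels numbered 11, of which 8 were higher and 3 lower in PCA than in Sham, with a median of 0.06. Without Sham array 1 they were 5 higher and 6 lower, with a median of -0.025, so the direction turned with that array. Kcnk1 had group means between 11.12 and 11.25, and Kcnk9 (TASK-3), which carries the standing outward current of granule cells together with Kcnk3, between 9.52 and 9.68. Kcnk3 had group means between 7.78 and 7.96. Kcnk2 (TREK-1), a mechanosensitive channel, had a mean of 5.98 ± 0.52 in Sham and 6.20 ± 0.23 in PCA (SD, n = 5 each), with Sham array 2 the lowest of all at 5.2. Its difference over all shunted groups was 0.27 (0.268, adjusted p = 0.857 by limma), but 0.0725 without Sham array 2 and 0.423 without Sham array 3. Kcnk15 read 5.1, 6.3, 5.0, 6.0 and 5.3 in NH3, so that arrays 2 and 4, the lowest for Kcnab1, were the highest for this gene. Its ammonia factor was 0.28 (SE 0.133, adjusted p = 0.886 by limma).

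The interaction of ammonia and LPS asks whether the agents together did other than the sum of each. The 5 genes with an unadjusted p under 0.05 were all positive, as were 2.19% of all genes at that p. They were Kcnmb3 at 0.32 (SE 0.109), Kcna2 at 0.35 (SE 0.124), Kcna10 at 0.36 (SE 0.129), Kcnab1 at 0.70 (SE 0.278) and Kcna5 at 0.38 (SE 0.177), each with an adjusted p of 0.997 by limma. Over the 85 genes 56 were positive and 27 negative, with a median of 0.07. Over all genes 51.0% were positive, with a median of 0.005. With each array centred on its median the medians were 0.19 for the 85 genes and 0.125 for all genes, and with cyclic loess 0.063 and -0.0047. The centring made 74 of the 85 positive, beside 80.8% of all genes, and cyclic loess 54, beside 48.7%, so the counts moved with the scaling of the arrays. Kcna10 rested on NH3+LPS array 2, at 4.4 against 4.0 on the other 3, and its difference from PCA in NH3+LPS was 0.20 (SE 0.094, adjusted p = 0.997 by limma). The interval of the interaction lay within 0.5 of 0 for 38 of the 85 genes.

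Other genes of potassium handling that carry no Kcn symbol were counted alongside. Of 29 listed pump, cotransporter, HCN channel and channel partner genes, 28 were measured and 0 passed the threshold in any of the 8 contrasts. Fxyd1 (phospholemman), a regulator of the sodium pump, had the smallest p among them. It read 10.9, 10.9, 11.2, 11.1 and 11.2 in Sham and 11.4, 11.2, 11.4, 11.4 and 11.5 in PCA, and no shunted array lay below 11.2. Its difference over all shunted groups was 0.34 (SE 0.067, adjusted p = 0.265 by limma). Amigo1, which encodes a cell adhesion protein, differed by -0.19 (SE 0.060, adjusted p = 0.641 by limma). The chloride cotransporter gene Slc12a5 (KCC2) had group means between 9.86 and 9.98.

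The promoters of the genes described at most length differ in base composition. RefSeq promoters on the rat assembly GRCr8 were found for 57 of the 85 genes. A single promoter, the first listed, was used per gene symbol. Over the 250 bases before the start, the 57 held a median of 11 CG pairs and 59.6% G or C. The medians were 6 and 52.0% over all 27456 symbols with a promoter, which were not limited to the genes measured. The letters TATAAA, read on both strands, occurred in 2 of the 57 (3.51%), beside 13.1% of all. The 3 sequences are those of the genes with the largest differences in PCA against Sham (Kcnh5), NH3 against PCA on the low side (Kcnab1) and on the high side (Kcnj13), and capitals mark CG pairs. They lie at chr6:99643857-99644106 on the minus strand, chr2:151614301-151614550 on the plus strand and chr9:95518987-95519236 on the minus strand.
Kcnh5: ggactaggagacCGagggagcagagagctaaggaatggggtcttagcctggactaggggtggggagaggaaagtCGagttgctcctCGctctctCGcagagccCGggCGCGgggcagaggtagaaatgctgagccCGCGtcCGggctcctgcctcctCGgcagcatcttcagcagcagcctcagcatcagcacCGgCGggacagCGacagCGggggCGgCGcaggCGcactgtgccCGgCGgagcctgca
Kcnab1: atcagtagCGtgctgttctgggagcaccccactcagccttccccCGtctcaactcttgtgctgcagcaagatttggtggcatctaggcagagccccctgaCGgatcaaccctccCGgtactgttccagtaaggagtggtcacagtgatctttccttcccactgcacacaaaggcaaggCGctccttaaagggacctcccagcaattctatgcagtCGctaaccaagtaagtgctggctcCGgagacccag
Kcnj13: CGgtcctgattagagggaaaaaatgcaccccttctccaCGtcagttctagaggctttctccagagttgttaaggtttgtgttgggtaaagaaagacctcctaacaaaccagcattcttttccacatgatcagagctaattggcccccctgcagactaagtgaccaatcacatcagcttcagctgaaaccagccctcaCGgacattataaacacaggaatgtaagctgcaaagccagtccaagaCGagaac
They hold 20, 7 and 4 CG pairs, and 67.6%, 56.0% and 46.8% G or C, in that order. Of the 3, only the Kcnj13 stretch holds TATAAA. These letters are a description of the windows, and the arrays did not measure promoter activity.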

How the data were processed

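RNA from rat cerebellum was labelled with biotin and hybridised to Affymetrix arrays, per the labels' protocols. The log2 values were deposited by the authors after RMA, a method of background correction, quantile normalisation and probe set summary named in the submitters' processing notes. Its version, the annotation build and any array filter were not given in the sources used here. All deposited log2 values were multiples of 0.1 (tolerance 1e-06), so group means move in coarse steps.

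Of 29016 probe sets, 19338 had a single symbol, and the brightest per gene left 18137 genes. Symbols were updated through RefSeq where possible, which changed 2 of the 85 (Kcne1l and Kcnq5l). Group means and a shared variance over the 24 arrays were estimated by limma (version 3.58.1, under R 4.3.3), and p-values were adjusted by Benjamini-Hochberg over 18137 genes. The code was tested on simulated data. Array number limits the precision.

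Named genes were those past the threshold, the 5 with the smallest p in each direction of 7 contrasts, a list of cerebellar interest, and the most and least variable of each role. The members, this list, the partner list and the marker lists were chosen with earlier results of these data known. Some genes are counted but not reported here by name, and the heat map shows 81 of the 85. Alternatives covered normalisation, dim genes, probe sets, variance settings, array weights, left-out arrays and a replicate block.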

Additional observations from a re-analysis of the deposited data

Results flagged for a closer look

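A value was picked out when its gap to the nearest other array of its group exceeded Dixon's 95% limit for the share of the group's range. Among 66 potassium channel genes in 5 groups, or 330 groups of values, 42 were picked out, and chance alone gives about 1 in 20 groups. With values in steps of 0.1, a group of otherwise equal values is picked out by a single step. No cause was tested, and the values given are log2 expression with the range of the other arrays of the same group.

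The 14 values of Sham array 1 came from the array that stood apart in brainstem and myelin markers. On Sham array 1 were Kcna4 at 6.0 (others 4.6 to 4.9), Kcna6 at 8.2 (others 6.8 to 7.2), Kcnab2 at 9.4 (others 8.6 to 8.7), Kcnc1 at 11.0 (others 11.3 to 11.4) and Kcnd2 at 10.9 (others 11.4 to 11.5). The same array also held Kcne1l at 8.9 (others 7.1 to 7.6), Kcnh1 at 9.1 (others 9.7 to 9.9), Kcnh2 at 8.2 (others 7.6 to 7.7), Kcnj3 at 10.2 (others 10.8 to 11.0) and Kcnk10 at 7.7 (others 8.4 to 8.6). The same array also held Kcnk3 at 7.1 (others 8.0 to 8.2), Kcnq5l at 6.6 (others 5.5 to 5.7), Kcnt1 at 9.9 (others 10.2 to 10.3) and Kcnv1 at 7.6 (others 8.7 to 9.1). On Sham array 3 was Kcnf1 at 4.3 (others 4.6 to 4.7). On Sham array 4 was Kcnrg at 5.9 (others 6.2 to 6.3).

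On PCA array 2 was Kcnab3 at 7.8 (others 8.1 to 8.2). On PCA array 3 were Kcna3 at 7.6 (others 7.2 to 7.3), Kcna4 at 5.5 (others 4.4 to 4.7), Kcnh3 at 9.0 (others 9.3 to 9.4), Kcnj8 at 6.4 (others 5.7 to 5.9) and Kcnq3 at 7.1 (others 6.7 to 6.8). On PCA array 5 was Kcng1 at 5.9 (others 6.2 to 6.3). On NH3 array 1 was Kcnh1 at 9.4 (others 9.7 to 9.8). On NH3 array 4 was Kcnj6 at 8.7 (others 8.6). On NH3 array 5 was Kcnk13 at 5.1 (others 5.2).

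On LPS array 1 were Kcnh1 at 9.4 (others 9.7 to 9.8) and Kcnv1 at 8.1 (others 8.7 to 8.9). On LPS array 2 were Kcna10 at 4.1 (others 3.7 to 3.8), Kcnh4 at 5.0 (others 5.3) and Kcns1 at 4.0 (others 3.8). On LPS array 5 were Kcnh3 at 9.4 (others 9.3) and Kcnj11 at 6.5 (others 6.8 to 6.9). On NH3+LPS array 1 were Kcnt1 at 10.4 (others 10.2) and Kcnv2 at 3.6 (others 3.3). On NH3+LPS array 2 were Kcna10 at 4.4 (others 4.0), Kcnd3 at 8.6 (others 9.4 to 9.5) and Kcnrg at 6.2 (others 6.3). On NH3+LPS array 3 were Kcng1 at 6.0 (others 6.1), Kcnj16 at 7.7 (others 7.1 to 7.2), Kcnmb3 at 4.0 (others 4.1) and Kcnq1 at 5.1 (others 4.3 to 4.4).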

How the results depend on the processing

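Over 92 results, 3069 of 3074 values recomputed under the alternatives kept their direction and their side of the threshold, and the count of called potassium channel genes was 0 in each of them, by limma. That share does not measure stability. Most of the differences were chosen for a small p, and no potassium channel gene was near the threshold. Leaving out an array of a group outside a comparison cannot move its difference. Sizes did move: Kcnh3 in all shunted groups against Sham was 0.1725, and 0.0075 without Sham replicate 1. The smallest adjusted p of a potassium channel gene was 0.143, for Kcnab1 in NH3 against PCA with array weights. Of the 5 values that changed sign, Kcnj3 in PCA against Sham was -0.005 without Sham replicate 1, Kcnj13 without the 4 arrays high in choroid plexus markers was -0.05 in NH3 against PCA and -0.228 in the ammonia factor, and Kcnab1 in NH3+LPS against PCA was 0.00667 without NH3+LPS replicate 3 or without those 4 arrays. With single arrays left out, Kcnj3 in PCA against Sham ran from -0.005 to 0.195 and Kcnab1 in NH3+LPS against PCA from -0.15 to 0.00667. The cause was not tested.

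Counts at an unadjusted p under 0.05 moved more: 2 to 8 in PCA against Sham, 3 to 12 in NH3 against PCA, 0 to 5 in LPS against PCA, 0 to 3 in NH3+LPS against PCA, 5 to 11 in all shunted groups against Sham, 1 to 7 in the ammonia factor, 0 to 11 in the LPS factor and 2 to 13 in the interaction. In NH3 against PCA the 12 came without NH3 array 3 or with array weights, and the 0 in the LPS factor without NH3 array 4 and the 11 without NH3 array 3. Without the 4 arrays high in brainstem markers (an alternative chosen after seeing the data) the count in PCA against Sham was 2.

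The 46 correlations of same-numbered arrays had a mean of 0.0871 (other pairs -0.0195) and ran from -0.473 to 0.567, with 23 over 0.1, and 12 of 24 arrays correlated best with an array of their own number. Since not every pair was over 0.1, the numbers were not taken as pairing the samples, though the data hint at some shared deviation. With the replicate block 0 potassium channel genes were called in every contrast. A fit on the compared groups alone was not run for all shunted groups against Sham or for the F-test, which use every group. Signal limits the dim genes: 45 of the 85 were in the brighter part of the table.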

Other observations

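Some values belong in no comparison of the potassium channel genes. A probe set deposited under another symbol, now Kcnk7 in RefSeq, had means of 3.92 ± 0.28 in Sham, 3.90 ± 0.32 in PCA, 3.78 ± 0.29 in NH3, 3.82 ± 0.13 in LPS (SD, n = 5 each) and 3.88 ± 0.096 in NH3+LPS (n = 4). The dimmer probe set of Kcnj2, an inward rectifier, had group means between 4.08 in LPS and 4.26 in Sham, while the brighter one had group means between 5.44 in PCA and 5.65 in NH3+LPS. The 3 probe sets annotated to several genes of which one is a potassium channel gene (Kcnip2, Kcnk5 and Kcnn1) were not analysed here.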
